A study of Mus musculus with 8 samples.

Results

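The Apoe cluster and the genes of lipid efflux that the liver X receptors (LXRs) control were examined as a set of 10 genes out of the 50615 in the table of estimated counts, which was made from RNA sequencing of mouse bone marrow-derived macrophages (BMDMs). The set holds Apoe and its chromosome 7 neighbours Apoc1 and Apoc2, the LXR receptors Nr1h2 (LXRβ) and Nr1h3 (LXRα), the cholesterol exporters Abca1 and Abcg1, the lipid transfer protein and lipase genes Pltp and Lpl, and Mylip, which encodes an E3 ubiquitin ligase for lipoprotein receptors. These genes were selected by position and role around Apoe after the difference of Apoe between the genotypes was known from the same libraries. The differences of the 10 genes between the genotypes are therefore given as a description without a p-value, with the number called in the main fit printed once beside that over all genes. Tests are given for their response to stimulation, for the interaction of genotype and stimulation, and for the genes of the same pathways outside the set.

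The libraries came from C57BL/6 mice and form 4 groups of 2. All groups carried floxed Ncoa6 alleles: the cells called Ncoa6-sufficient had no Cre (Ncoa6 fl/fl), and those called Ncoa6-KO also carried LysM CRE, in which Cre is expressed from the Lyz2 (LysM) locus of myeloid cells and removes floxed exon sequence of Ncoa6, the gene of a nuclear receptor coactivator. Marrow cells were differentiated for 6 days in M-CSF (20 ng/ml) and then kept in medium alone or treated with LPS at 100 ng/ml for 4 h followed by monosodium urate (MSU) crystals at 200 µg/ml for 2 h. The age of the mice is not given in the sources used here. Levels are counts scaled to a common library size by TMM (trimmed mean of M-values), called normalized counts, and each pair of values lists replicate 1 and then replicate 2 of a group. Log2 fold changes are given with the SE of the fit over all genes.

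LXRα and LXRβ are nuclear receptors that sense oxysterols and intermediates of cholesterol synthesis and bind DNA as heterodimers with the retinoid X receptors. In macrophages loaded with cholesterol they switch on transporters that hand cholesterol to apolipoproteins outside the cell, and apolipoprotein E is both a target and an acceptor in this route. The Apoe cluster of mice lies on chromosome 7 in the order Apoc2, Apoc4, Apoc1 and Apoe, and enhancers shared by these genes are known to respond to LXR in macrophages.

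The promoters of Apoe, Abca1 and Pltp are shown because Apoe and Pltp had the largest genotype differences among the 8 members whose mean reached 50 normalized counts, and because Abca1 carries the LXR motif. Each window is the RefSeq sequence of GRCm38.p6 from 250 bases before to 50 bases after an annotated start, read 5′ to 3′ along the gene, and bases in capitals match the motif searched. The Apoe window is chr7:19699139-19699438 and the Abca1 window chr4:53159846-53160145, while Pltp is shown at chr2:164857659-164857958. All 3 genes are on the minus strand.
Apoe promoter: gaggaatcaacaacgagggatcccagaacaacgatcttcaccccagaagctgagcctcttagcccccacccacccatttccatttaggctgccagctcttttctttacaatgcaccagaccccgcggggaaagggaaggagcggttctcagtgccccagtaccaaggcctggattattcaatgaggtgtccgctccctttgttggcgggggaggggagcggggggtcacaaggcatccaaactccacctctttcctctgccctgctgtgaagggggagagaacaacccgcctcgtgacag
Abca1 promoter: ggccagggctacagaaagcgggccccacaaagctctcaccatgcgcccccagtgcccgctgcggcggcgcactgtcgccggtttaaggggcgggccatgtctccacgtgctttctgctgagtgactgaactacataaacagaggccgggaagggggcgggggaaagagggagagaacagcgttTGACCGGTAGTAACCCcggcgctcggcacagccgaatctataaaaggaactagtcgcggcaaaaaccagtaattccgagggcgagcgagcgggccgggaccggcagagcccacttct
Pltp promoter: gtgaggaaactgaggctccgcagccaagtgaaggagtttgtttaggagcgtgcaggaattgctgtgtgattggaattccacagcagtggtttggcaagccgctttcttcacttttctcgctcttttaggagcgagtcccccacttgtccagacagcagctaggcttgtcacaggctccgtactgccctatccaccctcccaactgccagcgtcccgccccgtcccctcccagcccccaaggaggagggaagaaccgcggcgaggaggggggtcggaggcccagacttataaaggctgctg
The motif was a direct repeat of the half-site NGGTNA with 4 bases between the copies (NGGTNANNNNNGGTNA), searched on both strands, and it was present in 0.718% of the 32851 promoter windows of the table. Windows were listed for 7 of the 10 members, 10 windows in all, and 1 of these 10 held a match. That match, in Abca1, lies on the strand opposite to the gene, from 67 to 52 bases before the start. For the other windows the result says only that these letters are absent from 300 bases around a start.

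The libraries were first checked against their labels. Ncoa6 had 1515 and 1405 normalized counts in Ncoa6-sufficient BMDMs in medium alone against 784 and 622 in Ncoa6-KO BMDMs, and 1297 and 1173 against 563 and 526 with LPS + MSU. The groups did not overlap, and the fold changes were −1.05 ± 0.12 and −1.18 ± 0.12 on the log2 scale (edgeR quasi-likelihood test, adjusted p = 0.0024 and 0.0019). Without replicate 1 of the Ncoa6-sufficient group in medium the first call was lost (adjusted p = 0.0515). The Ncoa6 counts cover the whole gene, whereas Cre removes only the floxed exon sequence, so they do not measure how much intact Ncoa6 remained. Counts per library ran from 25281955 to 33673552. All 8 macrophage markers of a list (among them Csf1r, Adgre1 and Cd68) were present in every library, whereas 3 of 5 markers of T and NK cells (Cd3g, Nkg7, Ncr1) and 3 of 5 of adipocytes (Adipoq, Lep, Cfd) were at 0 in all of them. The summed level of the macrophage markers ran from 196075 to 208773 in Ncoa6-sufficient and from 146137 to 174348 in Ncoa6-KO BMDMs in medium, and from 300655 to 320797 against 251924 to 277251 with LPS + MSU. Within this list Cd14 was lower in Ncoa6-KO BMDMs in medium (8612 and 7115 against 5228 and 3937). Itgam was lower with LPS + MSU (22323 and 25290 against 15794 and 17686). Each had an adjusted p under 0.05 by edgeR in that condition. C1qb went from 25762 and 17538 to 13201 and 8550 in medium, whereas Cd68 overlapped between the genotypes in both conditions. The summed level of 7 stromal markers, led by Col1a1 and Col1a2, was 436 and 391 against 143 and 471 in medium and 967 and 917 against 353 and 841 with LPS + MSU, so that replicate 1 of each Ncoa6-KO group was the lowest of its condition. The summed level of 4 endothelial markers was lower in the Ncoa6-KO libraries, at 534 and 715 against 387 and 375 in medium and at 6532 and 6931 against 5473 and 3071 with LPS + MSU. Kdr made up most of this sum. Cdh5 and Pecam1 were also lower, whereas Tie1, at or under 15.4 in every library, was higher in Ncoa6-KO BMDMs of both conditions. The summed level of each of the other 7 lists stayed at or under 1157 in every library. Among these, the monocyte sum was 293 and 298 against 415 and 638 in medium and 1157 and 661 against 616 and 571 with LPS + MSU. Ctsk of the osteoclast list was higher in Ncoa6-KO BMDMs in both conditions (221 and 234 against 384 and 343 in medium), and Acp5 was lower in medium. The part of these markers in the results was not tested, and in bulk samples fewer cells of a type and less RNA per cell cannot be told apart.

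Apoe (chr7:19696109-19699188, GRCm38) showed the largest genotype difference of the 9 members with counts above the edge of detection. It had 21081 and 12573 normalized counts in Ncoa6-sufficient BMDMs in medium alone and 3926 and 2459 in Ncoa6-KO BMDMs. After LPS + MSU it had 24985 and 16638 against 4413 and 3187. The Ncoa6-KO libraries lay far below the Ncoa6-sufficient libraries in both conditions and did not overlap with them. The log2 fold change was −2.40 ± 0.30 in medium and −2.45 ± 0.30 with LPS + MSU, which left 19.0% and 18.3% of the Ncoa6-sufficient mean. The order of the group means ran from 20811 ± 5902 (SD, n = 2) in stimulated Ncoa6-sufficient BMDMs through 16827 ± 6016 in medium to 3800 ± 867 and 3193 ± 1038 in the corresponding Ncoa6-KO groups. Groups of one genotype overlapped, so that only the step between genotypes exceeded the spread of the libraries. Replicate 1 was 1.38 to 1.68 times as high as replicate 2 in each of the 4 groups.

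**Figure D1:**
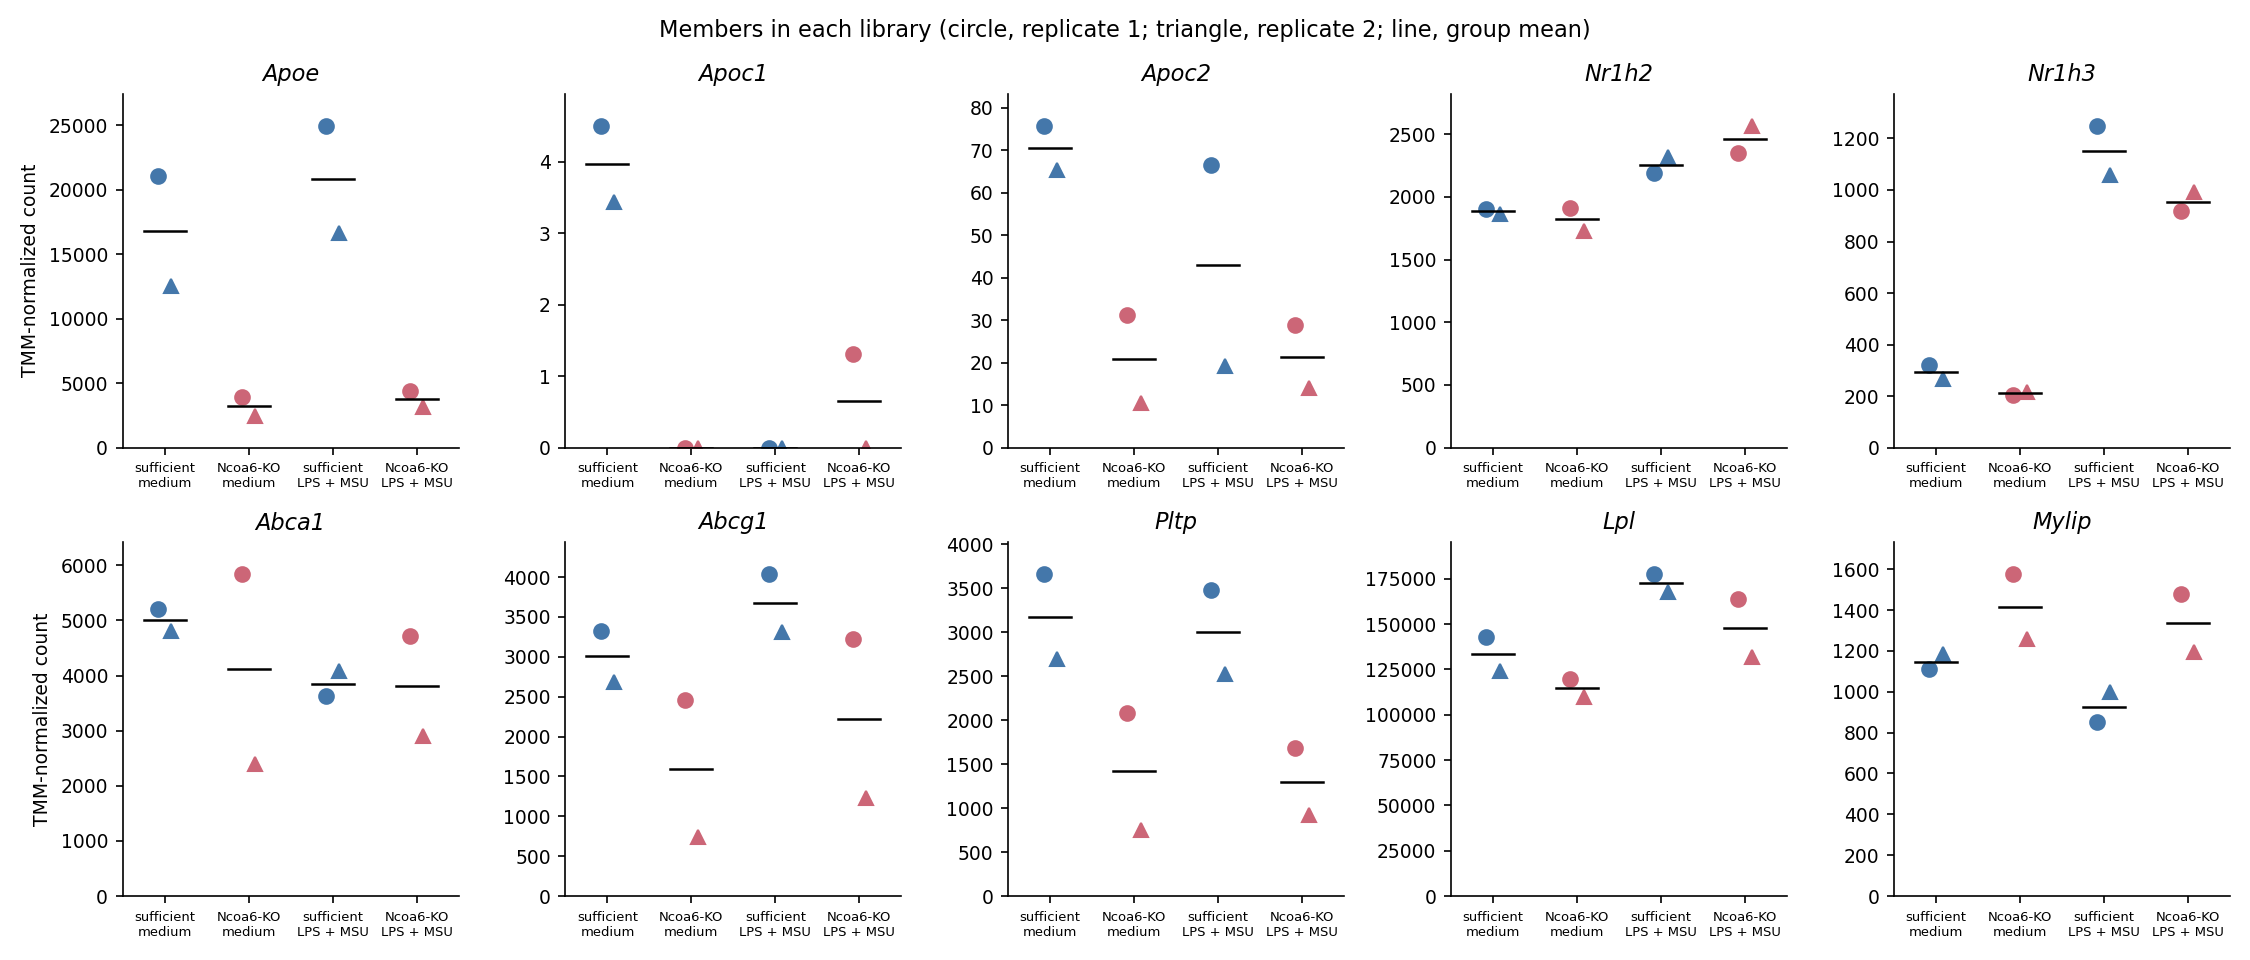
Normalized counts of the 10 members (y axis, linear, from 0) in the 4 groups (x axis), with Ncoa6-sufficient libraries in blue and Ncoa6-KO libraries in red, replicate 1 as circles, replicate 2 as triangles and group means as lines. The 4 Ncoa6-KO libraries of Apoe sit between 2459 and 4413, below the Ncoa6-sufficient libraries at 12573 to 24985, while replicate 2 of Ncoa6-KO is the lowest library for Abca1 and Abcg1 in both conditions.

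The 5 genes with the pattern most like Apoe, by Pearson correlation of log2(CPM + 1) over the 8 libraries among 11219 genes whose mean count reached 50, were Lyz2 (r = 0.993), Gm10602 (r = 0.987), Siglec1 (r = 0.983), Nes (r = 0.980) and Trf (r = 0.973). The 8 points fall into a cluster per genotype, and libraries share their culture condition, so these values only rank likeness. Lyz2, the lysozyme gene, is the locus that carries Cre in the Ncoa6-KO mice. No Ncoa6-sufficient library carried Cre, so presence of Cre and loss of Ncoa6 cannot be told apart in these groups. The cause of the Lyz2 difference was not tested. Lyz2 had 272098 and 209893 normalized counts in Ncoa6-sufficient against 127555 and 111994 in Ncoa6-KO BMDMs in medium, and 270329 and 217335 against 129385 and 123265 with LPS + MSU. Like Apoe, Lyz2 was higher in replicate 1 than in replicate 2 of each group.

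The other apolipoprotein genes of the cluster were expressed at far lower levels. Per kilobase of exon sequence, Apoe had 7870 ± 2814 normalized counts in Ncoa6-sufficient BMDMs in medium (SD, n = 2), Apoc2 had 86.8 ± 9.1 and Apoc1 had 5.34 ± 1.01. Apoc2, which encodes the cofactor that activates lipoprotein lipase, had 75.8 and 65.4 normalized counts in Ncoa6-sufficient and 31.3 and 10.5 in Ncoa6-KO BMDMs in medium. After LPS + MSU it had 66.5 and 19.3 against 28.8 and 13.99. The genotypes were apart in medium (log2 fold change −1.71 ± 0.53) but overlapped with LPS + MSU (−0.99 ± 0.63), where the value became 0.15 without replicate 1 of the stimulated Ncoa6-sufficient group. Apoc1, whose product inhibits lipoprotein uptake, was at the edge of detection. Its raw counts in Ncoa6-sufficient BMDMs in medium were 6 and 4, and they were 0 in both libraries of the Ncoa6-KO group in medium and of the stimulated Ncoa6-sufficient group, with 1 and 0 in the stimulated Ncoa6-KO group. Its sum of 11 counts over all libraries just passed the filter of 10, mainly through the Ncoa6-sufficient group in medium. Lower counts in the other groups were thereby fixed in advance, and no genotype difference of Apoc1 is read from them. Apoc4 did not pass the filter.

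Of the 8 other neighbours of Apoe on chromosome 7 that passed the filter, 1 was called between the genotypes in each condition, and it was the same gene, Bcl3. Called means an adjusted p under 0.05, which held for 1.88% of all 17625 genes tested in medium and for 3.59% with LPS + MSU. Bcl3, a nuclear member of the IκB family whose start lies 124 kb from that of Apoe, fell from 378 and 343 to 226 and 169 normalized counts in medium (log2 fold change −0.86 ± 0.17, adjusted p = 0.0363 by edgeR) and from 1517 and 1106 to 776 and 701 with LPS + MSU (−0.83 ± 0.16, adjusted p = 0.0214). The first call was lost without either Ncoa6-sufficient library in medium, without replicate 2 of Ncoa6-KO in medium or without either stimulated Ncoa6-KO library and by limma-voom, and the second without replicate 1 of the stimulated Ncoa6-sufficient group, without either stimulated Ncoa6-KO library or in a fit of only the groups compared (highest adjusted p = 0.336 and 0.192). Bcl3, Tomm40 and Nectin2 overlap antisense genes, and whether counting used the strand is not given in the sources used here. Tomm40, a mitochondrial import pore gene and the nearest neighbour that was clearly expressed, had log2 fold changes of −0.00 ± 0.11 and 0.12 ± 0.11 at 16.3 kb from Apoe. Nectin2 lies between Tomm40 and Bcl3 and had −0.33 ± 0.12 (adjusted p = 0.255) and 0.01 ± 0.11 (adjusted p = 1). The median over the 8 neighbours was −0.06 in medium and 0.16 with LPS + MSU, against −0.03 and 0.00 over all genes tested.

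**Figure D2:**
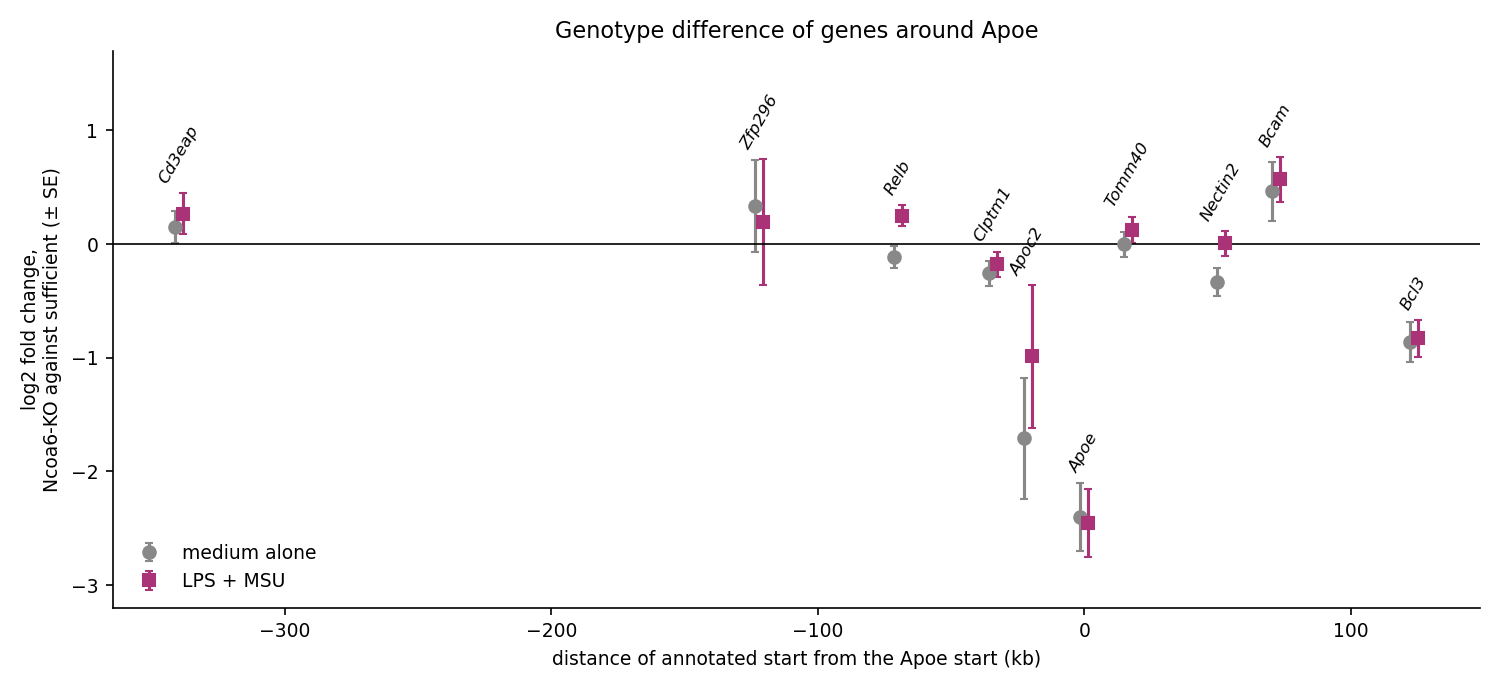
Log2 fold change between Ncoa6-KO and Ncoa6-sufficient BMDMs (y axis, with SE bars) against the distance of each gene's annotated start from that of Apoe in kb (x axis), in medium alone (grey circles) and with LPS + MSU (purple squares), points shifted by 1.5 kb for visibility. Apoe lies at −2.40 and −2.45, whereas Tomm40, 16.3 kb away, lies at −0.00 and 0.12.

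The receptor genes lie at chr7:44549616-44553951 (Nr1h2) and chr2:91184061-91202834 (Nr1h3), the latter overlapping the transcript Gm13783. Nr1h2, the widely expressed LXRβ gene, had 1906 and 1863 normalized counts in Ncoa6-sufficient and 1911 and 1730 in Ncoa6-KO BMDMs in medium. After LPS + MSU it had 2194 and 2322 against 2348 and 2569. The log2 fold changes were −0.05 ± 0.09, with overlapping libraries, and 0.12 ± 0.09. Nr1h3, the LXRα gene, had 319 and 265 against 206 and 214 in medium and 1250 and 1056 against 919 and 991 with LPS + MSU. Its Ncoa6-KO libraries were the lower ones in both conditions, by −0.48 ± 0.13 and −0.27 ± 0.12 on the log2 scale. Per kilobase of exon, the level of Nr1h2 in Ncoa6-sufficient BMDMs was 562 ± 9 in medium against 116 ± 15 for Nr1h3, and 673 ± 27 against 458 ± 54 after stimulation.

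The exporter genes Abca1 (chr4:53030787-53159895) and Abcg1 (chr17:31057675-31117988) split between the replicates of the Ncoa6-KO groups. Abca1, which moves cholesterol and phospholipid to lipid-poor apolipoprotein A-I, had 5206 and 4802 normalized counts in Ncoa6-sufficient BMDMs in medium and 5840 and 2401 in Ncoa6-KO BMDMs. After LPS + MSU it had 3627 and 4085 against 4713 and 2896. Replicate 1 of Ncoa6-KO was thus the highest and replicate 2 the lowest library of each condition. The log2 fold changes of −0.28 ± 0.32 and −0.02 ± 0.33 average these values: in medium the estimate was −1.06 without replicate 1 of Ncoa6-KO and 0.22 without replicate 2. Abcg1, which exports cholesterol to high-density lipoprotein, had 3329 and 2690 against 2453 and 745 in medium, and 4036 and 3311 against 3220 and 1226 with LPS + MSU. All Ncoa6-KO libraries of Abcg1 were below the Ncoa6-sufficient ones, but by very different amounts: replicate 2 held 24.7% and 33.4% of the Ncoa6-sufficient mean in the respective conditions, and replicate 1 held 81.5% and 87.7%. The corresponding log2 fold changes were −0.91 ± 0.48 and −0.72 ± 0.48, and in medium they ran from −2.02 without replicate 1 of Ncoa6-KO to −0.30 without replicate 2.

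Pltp (chr2:164839518-164857711), which encodes phospholipid transfer protein, was lower in Ncoa6-KO BMDMs in both conditions and showed the same split. It had 3659 and 2693 normalized counts against 2079 and 754 in medium and 3475 and 2528 against 1681 and 918 with LPS + MSU. The genotypes did not overlap (log2 fold change −1.16 ± 0.39 and −1.21 ± 0.40), and in medium the estimate ran from −2.07 without replicate 1 of Ncoa6-KO to −0.61 without replicate 2. Pltp overlaps Ctsa, the cathepsin A gene, on the opposite strand. Ctsa had 41090 to 48377 normalized counts in medium and log2 fold changes of −0.02 ± 0.13 and 0.03 ± 0.13 between the genotypes.

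Lpl (chr8:68880491-68907448), which encodes lipoprotein lipase, was the most abundant transcript of the set, with 12762 ± 1276 normalized counts per kilobase of exon in Ncoa6-sufficient BMDMs in medium (SD, n = 2). Its values were 143172 and 124261 against 119916 and 109780 in medium, and 177564 and 167868 against 163792 and 131954 with LPS + MSU. The Ncoa6-KO libraries were lower in both conditions without overlap, by −0.22 ± 0.15 in each on the log2 scale. Mylip (chr13:45389742-45412022) was the one member with higher values in all Ncoa6-KO libraries of both conditions. It had 1112 and 1183 against 1575 and 1256 in medium, and 853 and 1000 against 1477 and 1195 with LPS + MSU, a difference of 0.30 ± 0.13 and 0.53 ± 0.14 on the log2 scale.

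Counted over the set, the Ncoa6-sufficient and Ncoa6-KO libraries did not overlap for 8 of 10 members in medium, against 43.1% of all genes tested, and for 7 of 10 with LPS + MSU, against 47.4%. Among them, 7 were lower and 1 was higher in medium, and 5 were lower and 2 higher with LPS + MSU. The counts for medium include Apoc1, whose lower values were fixed in advance by the filter and are not read as a difference. At an adjusted p under 0.05, 1 of the 10 members was called in each condition, against 1.88% and 3.59% of all genes tested, and in both it was Apoe, which is the gene that led to the choice of the set. Apoe dropped out of the calls in medium without replicate 1 of the Ncoa6-sufficient group, and with LPS + MSU without replicate 2 of the Ncoa6-KO group, where its fold changes were −1.98 and −2.24. Other settings called more members: 5 in medium and 4 with LPS + MSU, both without a filter and with the replicate number as a block. DESeq2 called 1 and 2 members, against 506 and 849 of all genes. Since the genotype difference chose the set, nothing further is read from these counts.

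**Figure D3:**
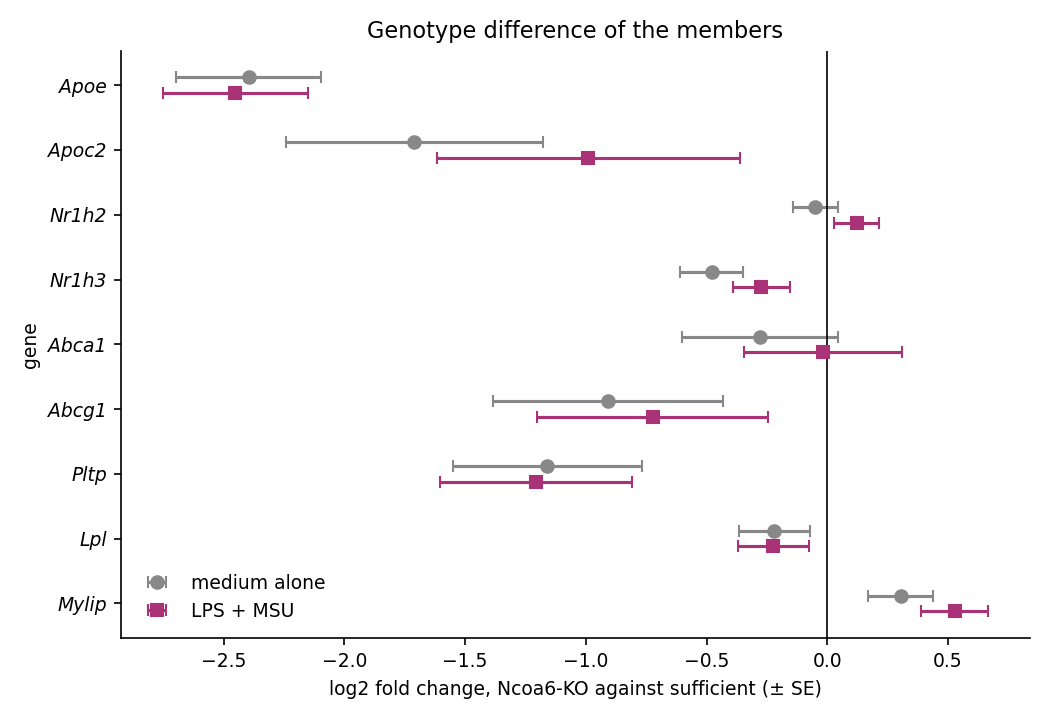
Log2 fold change of 9 members (y axis) between Ncoa6-KO and Ncoa6-sufficient BMDMs (x axis, with SE bars) in medium alone (grey circles) and with LPS + MSU (purple squares); Apoc1 is left out because its counts were at or near 0. Apoe lies near −2.4 in both conditions, Pltp near −1.2, and Mylip is the member to the right of 0 in both.

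The split between Ncoa6-KO replicates was examined in the 10 further LXR targets of sufficient abundance, without the members that had prompted it. In these, 9 of 10 were lower in replicate 2 than in replicate 1 in each Ncoa6-KO group, and 4 of 10 in medium and 2 of 10 with LPS + MSU in the Ncoa6-sufficient groups. A log2 ratio under −0.5 was found for Scd2, Mertk and Cd5l in Ncoa6-KO BMDMs in medium, also for Lpcat3 with LPS + MSU, and for Cd5l alone in each Ncoa6-sufficient group. With the members included it was examined, after the values had been seen, over the 18 members and further LXR targets whose mean reached 50 normalized counts. In the Ncoa6-KO groups 16 of the 18 genes were lower in replicate 2 than in replicate 1 in medium (53.9% of 11219 genes of that abundance) and 15 of 18 with LPS + MSU (48.5%). In the Ncoa6-sufficient groups the counts were 11 of 18 (56.4%) and 7 of 18 (52.8%). A log2 ratio under −0.5 was found for 7 of the 18 in each Ncoa6-KO group, against 4.06% and 2.99% of all such genes, and for 2 of the 18 in each Ncoa6-sufficient group, against 1.67% and 2.39%. Apoe, Abca1, Abcg1 and Pltp were among the 7 of the Ncoa6-KO group in medium. Apoe, Abcg1, Pltp, Lpl and Cd5l were lower in replicate 2 in every group. The log2 ratio of Apoe was −0.68 and −0.47 in the Ncoa6-KO groups, beside −0.75 and −0.59 in the Ncoa6-sufficient groups. The median log2 ratio of replicate 2 to replicate 1 was −0.33 and −0.34 in the Ncoa6-KO groups, against −0.02 and 0.01 over all genes, and −0.07 and 0.04 in the Ncoa6-sufficient groups.

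Named genes show what the split contained. Scd2, a stearoyl-CoA desaturase gene, had 3347 and 1268 normalized counts in Ncoa6-KO BMDMs in medium and 442 and 186 with LPS + MSU, against 2416 and 2203 and then 247 and 258 in Ncoa6-sufficient BMDMs. Lpcat3, which remodels phospholipids, had 1987 and 1470 in Ncoa6-KO BMDMs in medium and 2274 and 1497 with LPS + MSU. For these genes the 2 Ncoa6-sufficient libraries were alike and the 2 Ncoa6-KO libraries lay apart. Cd5l, which encodes a macrophage survival protein, differed from Scd2 and Lpcat3. Its log2 ratio of replicate 2 to replicate 1 was −0.70 and −0.60 in the Ncoa6-KO groups and −0.68 and −0.53 in the Ncoa6-sufficient groups. Neither receptor showed the split: in Ncoa6-KO BMDMs the log2 ratio of replicate 2 to replicate 1 was −0.14 in medium and 0.13 with LPS + MSU for Nr1h2, and 0.06 and 0.11 for Nr1h3. The summed level of the stromal markers ran the other way, mainly through collagen genes. Col1a1 had 58.4 and 185 in Ncoa6-KO BMDMs in medium and 69.3 and 323 with LPS + MSU. Dcn (39.2 and 19.6), Lum (13.1 and 9.8) and Pdgfrb (137 and 130) were instead higher in replicate 1 of stimulated Ncoa6-KO BMDMs. The part of these markers in the split was not tested. The sources used here do not say whether libraries of the same number came from the same mouse.

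**Figure D4:**
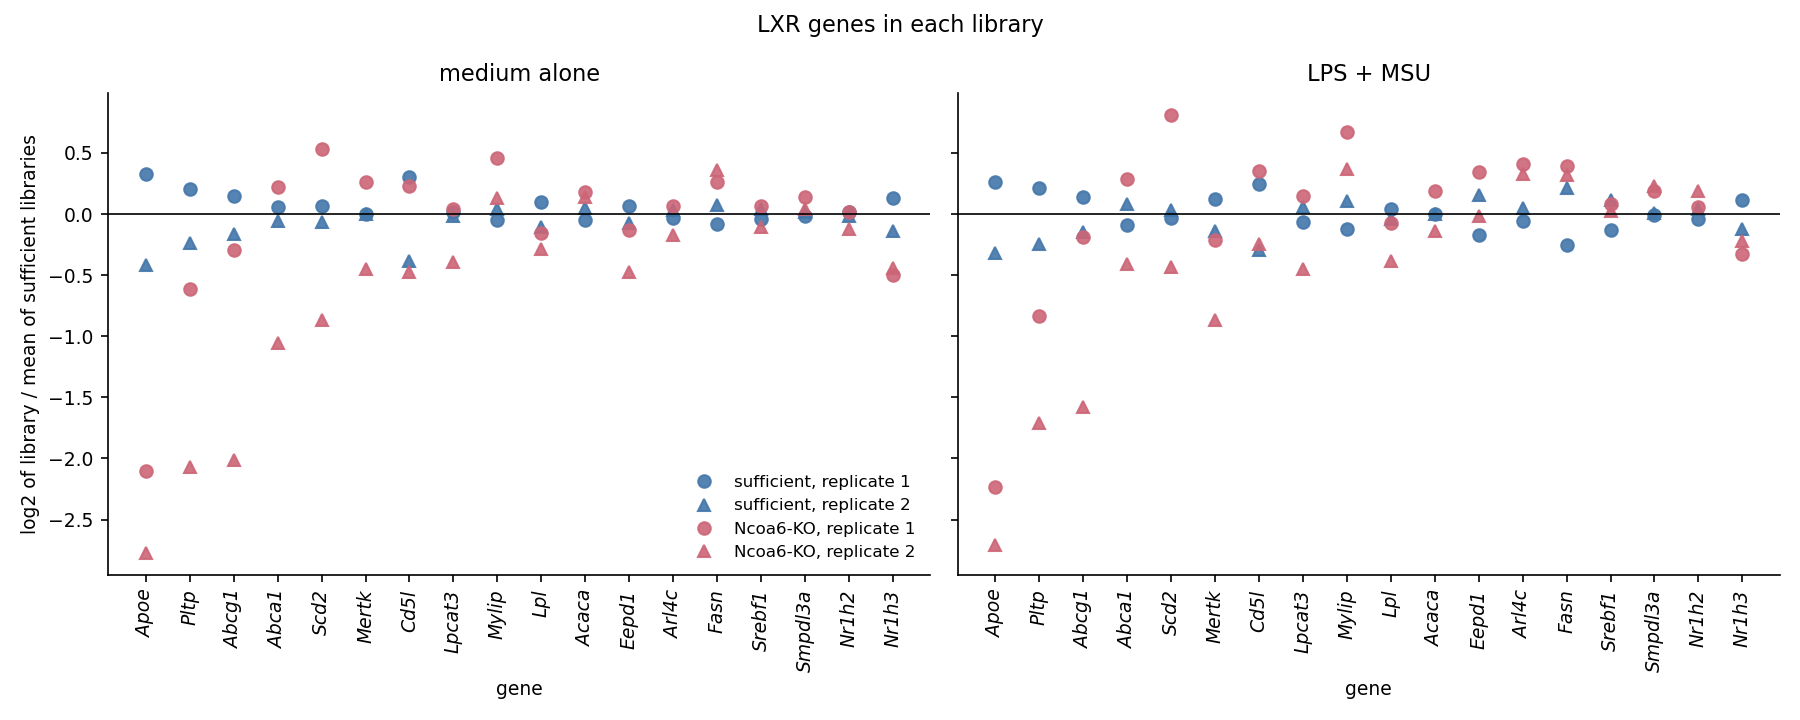
Log2 ratio of each library to the mean of the Ncoa6-sufficient libraries of its condition (y axis) for the 18 genes (x axis) in medium alone (left) and with LPS + MSU (right), with Ncoa6-sufficient libraries in blue, Ncoa6-KO libraries in red, replicate 1 as circles and replicate 2 as triangles. For Abcg1 in medium the Ncoa6-KO replicates lie at −0.29 and −2.01, and for Abca1 at 0.22 and −1.06.

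The response of the same genes to LPS + MSU, a contrast the choice of the set did not use although it shares libraries with the one that was used, was tested within each genotype. In Ncoa6-sufficient BMDMs 3 of the 10 members passed the test, against 55.2% of all genes, with 2 higher and 1 lower. The lower one was Apoc1, which had passed the filter through the group in medium and so had to be lower here, and it is not read as a response. In Ncoa6-KO BMDMs 2 of the 10 passed, against 53.1%, both higher. The receptors rose in both genotypes. Nr1h3 increased 3.94-fold in Ncoa6-sufficient (log2 fold change 1.98 ± 0.13, adjusted p = 1.4e-07, edgeR) and 4.55-fold in Ncoa6-KO BMDMs (2.18 ± 0.13, adjusted p = 8.6e-08). Nr1h2 rose less, by 0.26 ± 0.09 (adjusted p = 0.0329) and 0.43 ± 0.09 (adjusted p = 0.0021) on the log2 scale, and the call in Ncoa6-sufficient BMDMs was lost without either of their libraries in medium or without replicate 2 of their stimulated group (highest adjusted p over the alternatives 0.130). Apoc1 went from 6 and 4 raw counts to 0 and 0 and was lost without any 1 of these 4 libraries and by DESeq2.

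With libraries treated as unpaired, the efflux and lipid transfer genes did not pass the test for a response. Apoe changed by 0.31 ± 0.28 (adjusted p = 0.389) in Ncoa6-sufficient and 0.25 ± 0.29 (adjusted p = 0.493) in Ncoa6-KO BMDMs on the log2 scale, with 95% intervals from −0.32 to 0.93 and from −0.38 to 0.88. Abca1 had −0.38 ± 0.33 and −0.12 ± 0.33 (adjusted p = 0.356 and 0.788), and Abcg1 had 0.29 ± 0.47 and 0.47 ± 0.48 (adjusted p = 0.639 and 0.438). For Pltp the values were −0.08 ± 0.39 and −0.13 ± 0.40 (adjusted p = 0.877 and 0.808), and the sign of the first turned under the size factors of DESeq2. In both replicate numbers of both genotypes, Apoe and Abcg1 were higher in the stimulated library than in the library of the same number in medium. Lpl came close to the limit, at 0.37 ± 0.15 in Ncoa6-sufficient (adjusted p = 0.0521) and 0.36 ± 0.15 in Ncoa6-KO BMDMs (adjusted p = 0.0565), and the stimulated libraries of each genotype were above the libraries of that genotype in medium. Lpl was called in 12 of 16 alternatives in Ncoa6-sufficient and in 8 of 16 in Ncoa6-KO BMDMs, DESeq2 and limma-voom among them. Mylip had −0.31 ± 0.14 and −0.08 ± 0.14 (adjusted p = 0.081 and 0.633), and Apoc2 −0.72 ± 0.53 and 0.00 ± 0.68 (adjusted p = 0.273 and 1.00). The median over all genes was −0.12 in Ncoa6-sufficient BMDMs with TMM and −0.00 with DESeq2 size factors, a shift of 0.11. Relative to the TMM median, Apoe stood at 0.42, Abca1 at −0.26 and Lpl at 0.49.

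The partners of LXR and an enzyme that makes one of its ligands responded far more. Both retinoid X receptor genes that passed the filter fell: Rxra had 1211 and 1060 normalized counts in Ncoa6-sufficient BMDMs in medium and 114 and 128 with LPS + MSU (log2 fold change −3.23 ± 0.14, adjusted p = 9.5e-09), and 1278 and 1239 against 118 and 154 in Ncoa6-KO BMDMs (−3.22 ± 0.14, adjusted p = 8.6e-09). Rxrb fell by 1.04 and 0.74 (SE 0.10 in both, adjusted p = 5.3e-06 and 7.9e-05), and Rxrg was at or near 0 in every library. Ch25h, whose product makes 25-hydroxycholesterol, rose from 13.5 and 8.6 to 1797 and 1394 in Ncoa6-sufficient BMDMs (7.14 ± 0.22, adjusted p = 1.1e-09) and from 8.34 and 14.05 to 1022 and 1019 in Ncoa6-KO BMDMs (6.53 ± 0.22, adjusted p = 1.7e-09). Cyp27a1, a sterol 27-hydroxylase gene, gave 0.07 ± 0.28 and −0.22 ± 0.29 (adjusted p = 0.845 and 0.559).

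Other LXR targets moved in both directions with LPS + MSU. Of 16 listed, 13 were tested, and 2 rose and 4 fell in each genotype, with a median of −0.23 and −0.16 against −0.12 and −0.07 over all genes. The 4 that fell, named after their values were seen, were Scd2 (−3.2 ± 0.44 and −2.87 ± 0.43), Arl4c (−2.94 ± 0.11 and −2.53 ± 0.11), Eepd1 (−3.37 ± 0.19 and −2.89 ± 0.18) and Fasn (−0.76 ± 0.14 and −0.71 ± 0.13). Mertk, a receptor for the uptake of dead cells, rose by 1.54 ± 0.24 (adjusted p = 0.00018) and 1.09 ± 0.23 (adjusted p = 0.0021), and Apod was the other gene that rose, from 0 to 2.3 normalized counts in medium to 11.8 to 24.8. Smpdl3a, the most abundant gene of the list, had −0.06 ± 0.09 and 0.06 ± 0.09 (adjusted p = 0.607 and 0.645). Over the 51 of 60 pathway genes that passed the filter, 16 rose and 16 fell in Ncoa6-sufficient and 16 rose and 17 fell in Ncoa6-KO BMDMs. Of all genes, 55.2% and 53.1% passed in the respective genotypes.

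Uptake and synthesis genes were counted in the same way. Of the 8 lipoprotein uptake genes, 3 rose and 1 fell in Ncoa6-sufficient BMDMs, and 3 rose and 2 fell in Ncoa6-KO BMDMs, shares close to those of all genes. Lrp1 and Cd36, the most abundant genes of that list, did not pass the test (adjusted p = 0.0851 and 0.352 in Ncoa6-sufficient BMDMs). Of the 8 genes of the SREBP2 sterol response, 6 rose and 1 fell in each genotype, where 55.2% (Ncoa6-sufficient) and 53.1% (Ncoa6-KO) of all genes passed. Srebf2, the gene of the transcription factor itself, rose by 0.50 ± 0.12 and 0.52 ± 0.12 (adjusted p = 0.0031 and 0.0028). Among 11 genes of cholesterol ester and sterol trafficking, 3 rose and 6 fell in each genotype, beside the same shares of all genes. Npc2, a lysosomal cholesterol carrier, rose by 1.00 ± 0.18 and 1.01 ± 0.18 (adjusted p = 0.00068 and 0.00072), while the lysosomal lipase gene Lipa fell by 0.52 ± 0.12 and 0.39 ± 0.12 (adjusted p = 0.0026 and 0.015). Sel1l, which is needed for lipoprotein lipase to leave the endoplasmic reticulum, rose by 0.47 ± 0.10 and 0.39 ± 0.10 (adjusted p = 0.0013 and 0.0052), and Angptl4, an inhibitor of the lipase, was the 1 of 4 tested regulators that fell in each genotype.

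**Figure D5:**
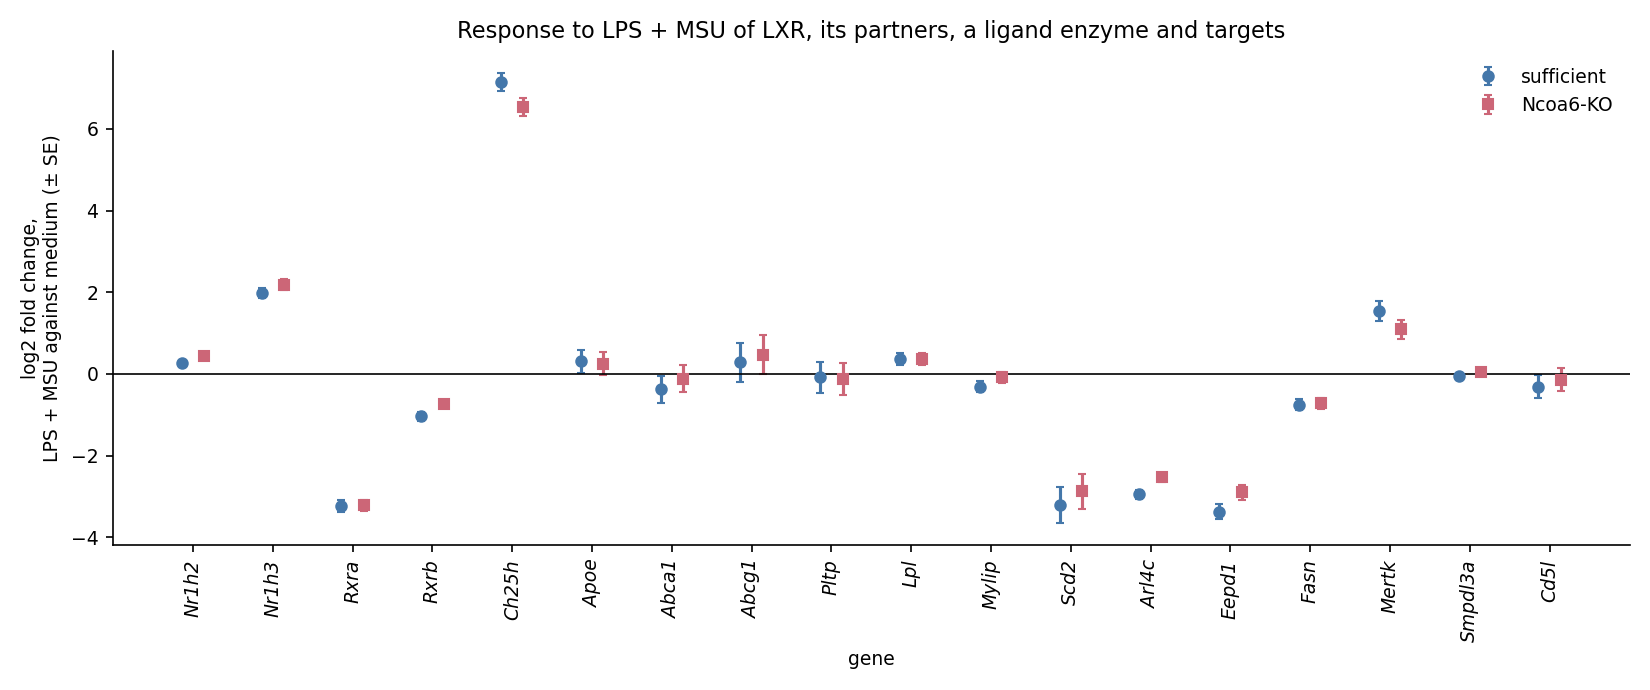
Log2 fold change of stimulated against unstimulated cells (y axis, with SE bars) for receptors, partners, the ligand enzyme gene Ch25h, members and further targets (x axis) in Ncoa6-sufficient (blue circles) and Ncoa6-KO BMDMs (red squares). Rxra lies near −3.2 and Ch25h at 7.14 and 6.53, whereas Apoe, Abca1, Abcg1, Pltp, Lpl and Mylip lie between −0.38 and 0.47.

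Whether the genotype difference changed with stimulation was tested by the interaction. None of the 10 members passed in edgeR, as was so for all 17625 genes (0% called). Over all genes 1045 had an unadjusted p under 0.05 in edgeR, and DESeq2 called 45. Among the members 1 had such an unadjusted p in edgeR, Apoc1 with its near-zero counts, and DESeq2 called 0. The interaction of Apoe was −0.06 ± 0.40 on the log2 scale with a 95% interval from −0.95 to 0.83. An interval this wide does not show that the genotype effects were equal. For Nr1h3 the interaction was 0.21 ± 0.18, with an interval from −0.18 to 0.59.

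The pathway genes outside the set, which were tested between the genotypes, showed few differences. Their lists were also drawn up with earlier results of these data known, so the tests are not independent of that choice. Of the 51 tested, 2 were called in medium, both higher in Ncoa6-KO BMDMs, against 1.88% of all genes, and 2 with LPS + MSU, 1 higher and 1 lower, against 3.59%. Their median log2 fold change was −0.00 in medium and 0.09 with LPS + MSU, beside −0.03 and 0.00 over all genes. Vldlr, the very low-density lipoprotein receptor gene and a target of the Mylip ligase, rose in medium from 18.8 and 12.9 to 43.8 and 53.6 normalized counts (1.60 ± 0.34, adjusted p = 0.0419), a call that was lost without any 1 of the 8 libraries and by DESeq2 (highest adjusted p = 0.249). With LPS + MSU it had 6.9 and 6.9 against 20.9 and 29.4 (adjusted p = 0.0604). Ch25h was lower in stimulated Ncoa6-KO BMDMs, at 1797 and 1394 against 1022 and 1019 (−0.64 ± 0.14, adjusted p = 0.0331), and this call was lost without either Ncoa6-sufficient library in medium, either stimulated Ncoa6-KO library or replicate 1 of the stimulated Ncoa6-sufficient group, or in a fit of only the groups compared (highest adjusted p = 0.272).

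None of the 13 tested LXR targets outside the set passed in edgeR in either condition, with 2 in medium and 3 with LPS + MSU at an unadjusted p under 0.05, and none passed in DESeq2. With LPS + MSU, Mertk and Fasn were called in edgeR without a filter and with the replicate number as a block. Their median was −0.05 in medium and 0.05 with LPS + MSU. Smpdl3a had 0.09 ± 0.09 (adjusted p = 0.773) and 0.21 ± 0.09 (adjusted p = 0.281), Mertk −0.05 ± 0.23 (adjusted p = 0.969) and −0.50 ± 0.23 (adjusted p = 0.293), and Cd5l −0.08 ± 0.28 (adjusted p = 0.957) and 0.09 ± 0.29 (adjusted p = 0.920). The partner genes were not called either, with Rxra at 0.15 ± 0.11 (adjusted p = 0.673) and 0.16 ± 0.17 (adjusted p = 0.676) and Rxrb at 0.04 ± 0.10 (adjusted p = 0.932) and 0.34 ± 0.11 (adjusted p = 0.116). All 8 SREBP2 genes had positive differences with LPS + MSU, with a median of 0.12, none of them called (edgeR; 3 at an unadjusted p under 0.05).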

How the data were processed

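RNA sequencing was analysed in 8 libraries of mouse BMDMs, 2 per group. The authors aligned reads from a stranded mRNA kit to GRCm38 with STAR 2.7.3a and deposited gene-level estimated counts from RSEM 1.3.3, per the submitters' processing notes and the study's methods; whether the counting used the strand is not given in the sources used here. The estimated counts were rounded. Of 50615 rows, 50295 had a symbol, and all 10 members matched. Genes with a sum of at least 10 over the 8 libraries (17625 genes) were tested with the quasi-likelihood test of edgeR 4.0.16 (R 4.3.3) with TMM scaling, 4 groups and Benjamini-Hochberg adjustment over all genes, and called at an adjusted p under 0.05. TMM factors were 1.23 to 1.29 in medium and 0.77 to 0.83 with LPS + MSU. With a residual of 4 degrees of freedom, the spread was shared over groups. Replicates differed by more than sampling noise (chi-square per degree of freedom 19.1 to 34.8 over genes). The methods describe different mice, and p-values measure the spread between these libraries.

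The members and gene lists were chosen with earlier results of these data known. All members were described. From the pathway lists, genes called between genotypes, RXR partners and up to 3 genes of highest mean count were named, and any other gene named was chosen after its values were seen. Some genes counted in the lists are not reported here by name. Alternatives were DESeq2 1.42.0, its size factors in edgeR, limma-voom (limma 3.58.1), other filters, fits of only the groups compared, replicate blocks and leaving out each library. The edgeR script was tested on simulated data. Gene positions are from GENCODE M21 on GRCm38, the assembly of the files.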

Additional observations from a re-analysis of the deposited data

How the results depend on the processing

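With 2 libraries per group the calls near the limit moved easily. For pathway genes between the genotypes in medium, 2 were called, against 1 with DESeq2, 3 (Angptl4 added) with limma-voom, without a filter, in a fit of only the groups compared and with the replicate block, and 0 to 1 when a library was left out; with LPS + MSU, 2 were called, against 4 with DESeq2, 10 without a filter, 0 in a fit of only the groups compared and 0 to 3 when a library was left out. For the response of members to LPS + MSU, 3 were called in Ncoa6-sufficient BMDMs, against 6 without a filter, 5 in a fit of only the groups compared and 1 to 5 when a library was left out, and 2 in Ncoa6-KO BMDMs, against 4 without a filter and 2 to 4 when a library was left out. The interaction stayed at 0 members in all alternatives run. The cause of these moves was not tested.

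Labels give the groups shared replicate numbers but do not tie a number to a mouse. The correlation of same-numbered deviations was 0.042 to 0.353 over 11219 genes for the 6 pairs of groups, and with only 2 numbers this does not establish a pairing. With the replicate number as a block, 8 pathway genes were called with LPS + MSU between the genotypes, and 6 and 4 members responded in Ncoa6-sufficient and Ncoa6-KO BMDMs; with a block within each genotype these were 8 and 5. Apoe was called in both genotypes under either block (response 0.32 and 0.27), Abcg1 in both and Abca1 in Ncoa6-sufficient BMDMs under the block within genotype.

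Signs turned for small differences that were not called. Without a filter, Apoc2 in Ncoa6-KO BMDMs had a response of -0.023; Pltp in Ncoa6-sufficient BMDMs had 0.031 with DESeq2 and with its size factors, and its interaction was 0.066 with limma-voom, 0.022 with the block and 0.04 with the block within genotype; Ch25h in medium between the genotypes was 0.025 in a fit of only the groups compared. Leaving out a library, the response ran from -0.019 to 0.73 (Apoe, Ncoa6-sufficient), -0.047 to 0.63 (Apoe, Ncoa6-KO), -0.62 to 1.02 (Apoc2, Ncoa6-KO), -0.62 to 0.66 (Abca1, Ncoa6-KO), -0.39 to 1.58 (Abcg1, Ncoa6-KO), -0.29 to 0.17 and -0.68 to 0.79 (Pltp) and -0.26 to 0.090 (Mylip, Ncoa6-KO). The interaction then ran from -0.48 to 0.32 (Apoe), -0.24 to 1.04 (Abca1), -0.72 to 1.29 (Abcg1), -0.60 to 0.87 (Pltp) and -0.22 to 0.10 (Lpl), and Ch25h between the genotypes in medium from -0.42 to 0.34. The responses of Nr1h3 kept their direction and call in all 16 alternatives.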
